A study of Mus musculus with 70 samples.

Results

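The response of NZO dorsal root ganglia to axotomy was read from 8 arrays, 4 of injured and 4 of naive ganglia, among 70 labelled arrays of 9 mouse strains. The arrays were chosen by their titles, with no measured value. NZO is the name by which the New Zealand Obese inbred strain is known, a strain prone to obesity and insulin resistance. Each array carried total RNA of 6 dorsal root ganglia from 3 mice, so each value is that of a pool, and per the labels the replicates are distinct biological samples. The injured ganglia, titled AX5D, are taken to be those of day 5 after axotomy, the cutting of the sensory axons. The naive group was uninjured. The other strains, named 129, AJ, C3H, C57, CAST, DBA, NOD and WSB, have 4 naive and 4 injured arrays each, except AJ with 3 and 3. The labels used here give no age, no sex and no nerve, and no genotype beyond the strain name.

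Dorsal root ganglia hold the cell bodies of sensory neurons, each wrapped by satellite glial cells, with Schwann cells, blood vessels and resident macrophages between them. When the peripheral axon is cut, the neuron switches on a growth programme in which transcription factors such as Atf3 and Jun rise, neuropeptides such as Gal and Npy appear, and many receptors and ion channels of the resting neuron decline. Macrophages respond as well. They divide or arrive from the blood, gather around the injured cell bodies, and are recognised by complement C1q, Fc receptors, lysosomal proteases and the Trem2 and Tyrobp receptor pair.

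Levels are log2 normalized intensities, and the response of a gene is its mean level on the 4 injured arrays minus that on the 4 naive arrays. The ganglion was well represented. The mean level of 10 measured genes of sensory ganglion identity, which include Isl1, Pou4f1, Avil and Prph, lay between 11.05 and 11.23 on the naive and between 10.75 and 11.04 on the injured arrays. Nefl was not above background on any NZO array. Some arrays stood apart. Naive replicates 1 and 4 had the higher levels of immediate early genes, with Egr1 at 13.05, 11.24, 10.91 and 13.19 on naive replicates 1 to 4. Injured replicate 4 had the highest mean level of 20 skeletal muscle genes, where the 4 injured arrays read 6.93, 6.48, 6.62 and 9.56. The table's columns also fell into runs of 8 neighbours that resembled each other, and no run held both naive and injured NZO arrays. The NZO response can therefore not be computed within a run, and each NZO group was compared with the other strains' arrays of the same run.

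Axotomy changed 3240 of 11815 genes in NZO ganglia (27.4%, adjusted p below 0.05 in limma), with 1700 higher (14.4%) and 1540 lower (13%). Scaling arrays by their median in place of quantiles gave 1699 higher and 962 lower genes. The rises were the larger changes: 408 genes rose and 206 fell at least 2-fold, and 102 rose at least 4-fold. At least 4-fold lower were 3 genes, Tpd52l1, Htr3a and Ntsr2, though the other Tpd52l1 probe fell less. The naive and injured arrays did not overlap for 3485 genes (29.5%), of which 2793 were also past the threshold. Leaving out any NZO array gave 2768 to 3048 genes.

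Ecel1, a membrane peptidase of injured neurons, had the largest called rise among genes whose naive and injured arrays did not overlap. It read 5.59, 5.09, 5.62 and 5.07 on the naive arrays, none of them above background, and 12.08, 11.95, 11.98 and 11.78 on the injured arrays. Its rise was at least 61.2-fold (adjusted p = 1.07e-39). Npy, neuropeptide Y, went from 7.71, 7.03, 6.65 and 6.85 to 13.91, 13.50, 13.71 and 13.33, a rise of 6.55 (SE 0.27, 94.0-fold). The 4 arrays of each group lay close together and far from the other group. Atf3, the transcription factor most used to mark injured neurons, went from 7.06, 7.15, 7.0 and 7.87 to 13.09, 12.92, 13.02 and 12.81, a rise of 5.69 (SE 0.19, 51.6-fold). Sprr1a, a small proline-rich protein of growing axons, read 7.18, 7.86, 6.90 and 6.29 before and 12.17, 12.44, 12.28 and 12.44 after injury, a 38.8-fold rise. Its naive arrays were more spread than those of Atf3.

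**Figure D1:**
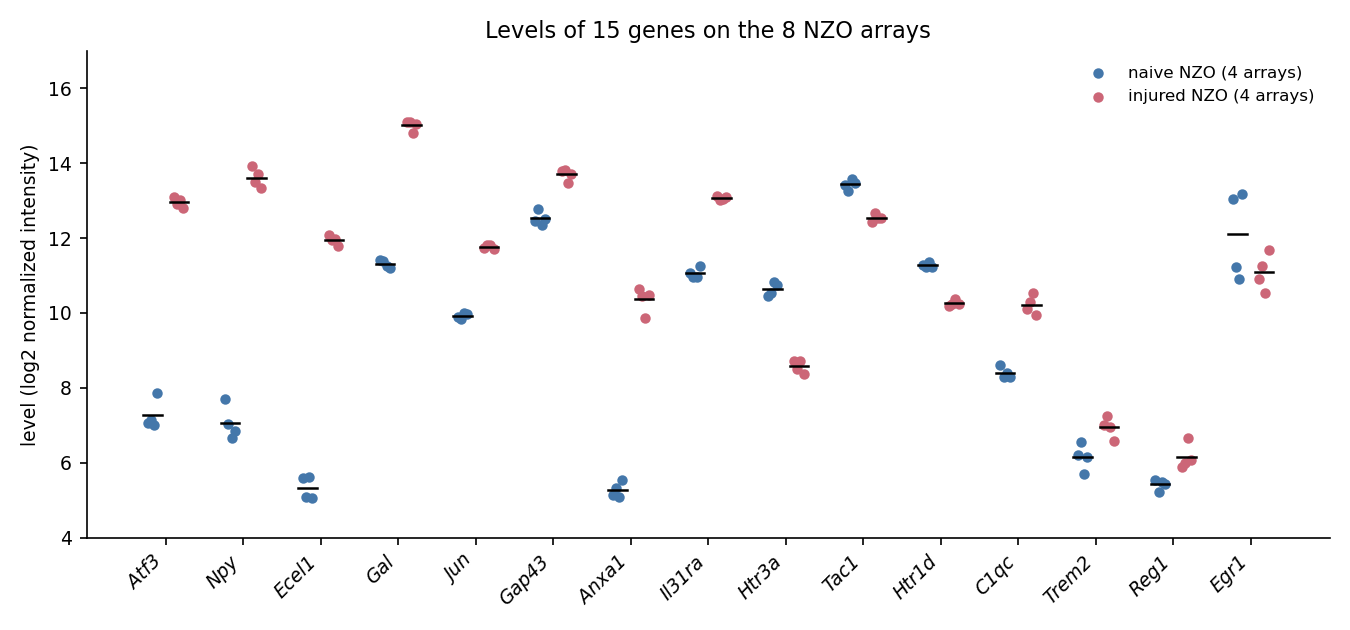
Levels of 15 genes on the 8 NZO arrays (vertical axis, log2 normalized intensity; points, single arrays; short lines, group means). Atf3, Npy and Ecel1 separate widely between naive and injured arrays, Htr3a and Tac1 are lower on injured arrays, and Reg1 stays near 6.16 after injury.

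The other genes among the 12 largest rises were mostly at or near background before injury. Wfdc3, a whey acidic protein family member, rose at least 66.1-fold, and the serotonin transporter Slc6a4 at least 38.5-fold. Anxa1, annexin A1, rose at least 20.4-fold, the lipase family gene Lipn at least 13.6-fold and C1ql2, a secreted C1q-like protein, at least 12.8-fold. Fst, the activin-binding protein follistatin, rose by 4.93 (30.4-fold). Speer3 and Speer1 rose at least 25-fold and at least 11.7-fold, but they belong to a family of near-identical copies that a probe may not separate.

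Injury-induced neuronal genes rose broadly, with 84.6% called, and injury transcription factors were called at 50%, beside 27.4% of all genes. Of 39 measured genes in a list of 42 injury-induced neuronal genes, 31 rose and 2 fell, Klf4 and Nefm, with a median response of 2.04 against −0.013 over all genes. Gal, galanin, went from 11.42, 11.38, 11.27 and 11.21 to 15.10, 15.09, 14.81 and 15.05 (12.9-fold). Gap43, a growth cone protein, was already high and rose 2.26-fold, from 12.53 ± 0.19 to 13.70 ± 0.16 (SD, n = 4). Gadd45a, a stress-response gene, rose 6.20-fold. Among 30 measured injury transcription factors, 12 rose and 3 fell, Egr1, Klf4 and Runx1, of which Egr1 went from −1.01 to 0.015 without naive replicates 1 and 4. Jun, the partner of Atf3, went from 9.93 ± 0.070 to 11.76 ± 0.053 (SD, n = 4, 3.57-fold), with no overlap of arrays. Nfil3 rose by 2.11 and Crem by 2.14, both leucine zipper factors, and Smad1, a signal carrier of bone morphogenetic proteins, by 0.76, while its other 2 probes read 0.57 and, near background, −0.34. Stat3 read −0.010 (adjusted p = 0.976) on the probe with the highest mean level, while its other 2 probes read 0.34 and 0.44.

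Ligands and their receptors moved too. Neuropeptide genes were called at 73.7% and activin pathway genes at 61.5%, beside 27.4% of all genes. Of 19 neuropeptide genes 9 rose and 5 fell: beside Npy and Gal, Grp (gastrin-releasing peptide) rose at least 6.36-fold, Nts (neurotensin) by 3.14, Vgf by 2.44 and Adcyap1 (the peptide PACAP) by 2.03, while Tac1, the substance P precursor, fell by 0.89. The other fallen peptides were Calcb, of the calcitonin gene-related peptide (−1.06), Sst, somatostatin (−1.09), Nmb, neuromedin B (−0.97), and the secretogranin Scg2 (−0.43). Of 13 activin pathway genes 7 rose and 1 fell, Fstl1 (−0.55). Inhbb, the activin beta B subunit, rose by 2.42, the receptor Acvr1 by 1.22 and Inhba, the beta A subunit, by 0.66 (adjusted p = 0.0248), with Inhba above background on 2 injured arrays and on no naive array. Cytokine receptor and gp130 signalling genes were called at 34.6%, near the 27.4% of all genes. Of 26 such genes 9 rose, among them Socs3, a feedback inhibitor of that pathway (2.04), Il13ra1 (2.20) and Stat5a (2.22). The other Stat5a probe, dimmer and above background on 6 NZO arrays, read only 0.12. Of 38 tubulins and microtubule regulators 13 rose and 6 fell (50% called), with Stmn4 (3.44) and Tubb6 (3.06) among those that rose.

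Several of the 12 genes that fell most encode receptors of sensory neurons. Htr3a, a subunit of the serotonin-gated channel, went from 10.46, 10.55, 10.81 and 10.73 to 8.72, 8.49, 8.72 and 8.38, a fall by 2.06 (SE 0.22). Its partner subunit Htr3b fell by 1.86, the neurotensin receptor Ntsr2 by 2.04, the itch receptor Mrgpra3 by 1.83 and the GTPase Rem2 by 1.78. Tpd52l1 had the largest called fall, from 8.40, 8.37, 7.97 and 7.99 to 5.70, 5.56, 6.11 and 6.43. Its rank depends on the probe, since its other probe, of similar mean level, read −1.60. The others of the 12 largest falls were Prmt8, an arginine methyltransferase (−1.97), Chodl (−1.93), Igsf21 (−1.85), Ibsp (−1.84), Vstm2b (−1.78) and Thrsp, a lipid synthesis regulator, which was not above background on any injured array and fell at least 2.51-fold. Of 21 nociceptor markers 12 fell, with a median of −0.89, and 4 rose (76.2% called, beside 27.4% of all genes). The fallen ones include the sodium channel Scn10a (−0.93) and Mrgprd (−1.22). Those that rose were the growth factor receptor genes Gfra3 (1.80), Gfra1 (1.19) and Ret (0.35) and the ATP-gated channel P2rx3 (0.38).

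Other neuronal lists moved down, with 85.7% of large-diameter, 63% of channel and 69.6% of synaptic vesicle genes called, beside 27.4% of all genes. Of 14 large-diameter neuron markers 11 fell and 1 rose, Gabrg1 (1.08), with the potassium channel Kcna2 at −1.06, Whrn at −1.16 and Faim2 at −0.86. Of 27 voltage-gated channel genes 16 fell, such as Hcn2 (−0.93), and only Cacna2d1, the calcium channel subunit that gabapentin binds, rose (1.68). Of 23 synaptic vesicle genes 14 fell and 2 rose, Syt4 and Stx1a, with Rph3a at −1.30, Cplx2 at −1.31 and Vamp1 at −1.02. Of 35 oxidative phosphorylation genes 12 fell (34.3%, near the 27.4% of all genes called), with a median of −0.18, and none rose by limma, also none at an unadjusted p below 0.05. Over all genes median scaling gave the 962 lower genes above, and its effect on these lists is not given here.

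The NZO response was then set against the mean response of the other 8 strains, which share no array with it. In the other strains together 7113 genes were past the threshold (60.2%; 27.3% higher and 32.9% lower), a test with 62 arrays behind it, so its counts are not comparable with those of NZO. The test of the difference itself called 305 genes (2.58%), 154 with a higher response in NZO (1.3%) and 151 with a lower one (1.28%). Among the 151 lower genes, 58 rose in NZO by less than elsewhere, 57 rose elsewhere and were not past the threshold in NZO, and 14 fell in NZO and rose elsewhere. Another 13 fell in NZO while not past the threshold elsewhere, and 9 fell further in NZO. Among the 154 higher genes, 66 rose by more in NZO, 30 rose in NZO and were not past the threshold elsewhere, 10 rose in NZO and fell elsewhere, and 42 fell elsewhere and were not past the threshold in NZO. The last 6 fell less in NZO.

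A difference in response can come from the naive or from the injured level. Of the 151 lower genes, 107 were lower in injured NZO ganglia than in the injured ganglia of the other strains, and 60 were higher in naive NZO ganglia, where all genes gave 8.51% and 9.45%. Of the 154 higher genes, 67 were higher in injured and 89 lower in naive NZO ganglia, where all genes gave 10.9% and 9.44%. Choosing genes by their response fixes such a split in part, so it is a description. The count of 305 depended on single arrays of both groups. It was 205 to 277 with a naive array left out and 190 to 258 with an injured array left out. The lowest of these was without injured replicate 1. Without naive replicates 1 and 4 together, a choice made after the data were seen, the count was 180. A fold of at least 1.5 was past the threshold for 12 genes. Against single strains the count ran from 97 against NOD (0.821%) over 124 against AJ (1.05%), 137 against C57 (1.16%), 250 against 129 (2.12%), 246 against C3H (2.08%), 337 against DBA (2.85%) and 589 against WSB (4.99%) to 816 against CAST (6.91%).

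**Figure D2:**
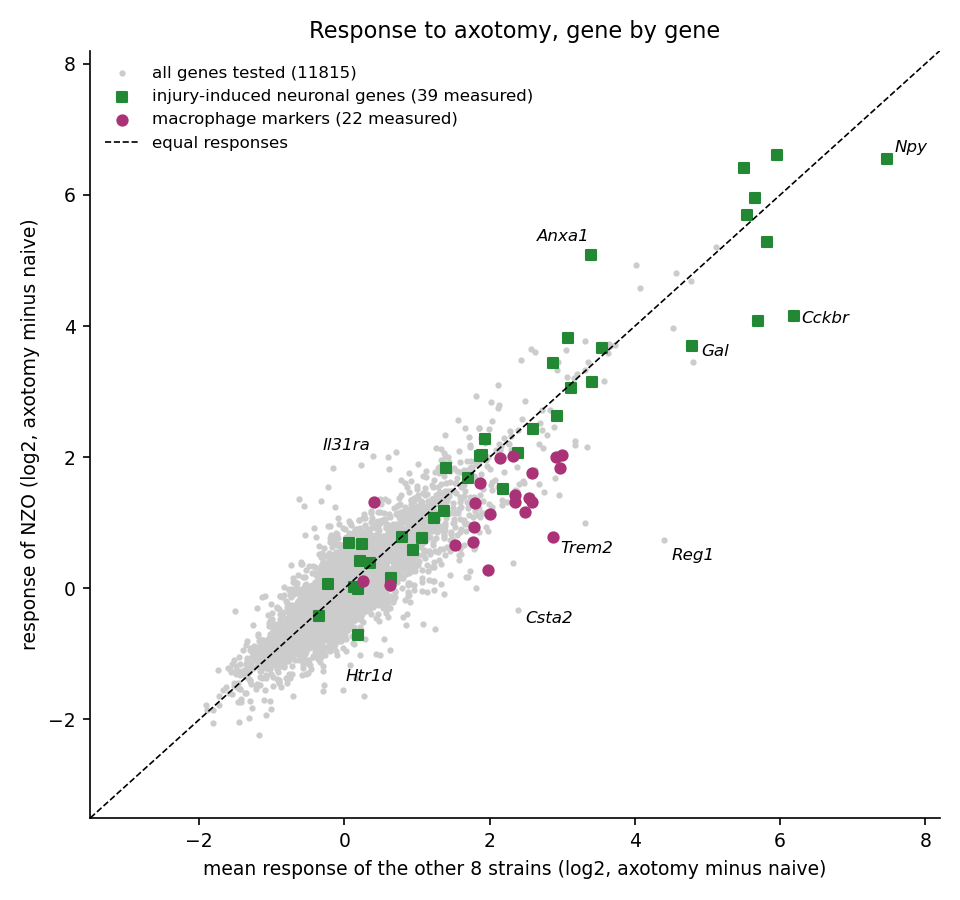
Response of each gene in NZO (vertical axis, log2) against the mean response of the other 8 strains (horizontal axis, log2), for 11815 genes; squares are 39 injury-induced neuronal genes, circles 22 macrophage markers and the dashed line marks equal responses. The injury genes lie on both sides of the line (22 of 39 below it), while 21 of 22 macrophage markers and Reg1 lie below it.

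By limma 4 genes were past the threshold against each of the 8 strains taken singly: Reg1, Trem2, Paqr9 and Trpc1. Reg1 and Trem2 are shown here with C1qc and Ctss, as the genes whose lower response in NZO is described next. Each line gives 250 bases before to 50 bases after the gene's start in RefSeq GRCm38.p6, read along the gene's strand: Reg1 at chr6:78425733-78426032 (plus strand), Trem2 at chr17:48346151-48346450 (plus), C1qc at chr4:136892865-136893164 (minus) and Ctss at chr3:95526536-95526835 (plus). Capitals mark TGANTCA, the AP-1 motif bound by Jun dimers, and GAGGAA, the core of the ETS motif bound by the macrophage factor PU.1, on either strand. The motifs do not overlap in these windows. Of 27025 RefSeq promoter windows of this length 7.93% hold TGANTCA and 28.3% hold GAGGAA. Of 18 such windows matched to macrophage markers 2 (11.1%) hold the first and 10 (55.6%) the second. A match says only that these letters are present, and the reference sequence is not that of NZO.
Reg1: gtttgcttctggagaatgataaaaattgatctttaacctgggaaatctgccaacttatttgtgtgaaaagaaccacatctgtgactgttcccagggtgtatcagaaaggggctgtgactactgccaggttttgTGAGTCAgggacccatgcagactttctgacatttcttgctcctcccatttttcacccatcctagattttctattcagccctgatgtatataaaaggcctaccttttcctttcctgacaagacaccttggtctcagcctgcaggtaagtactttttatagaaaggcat
Trem2: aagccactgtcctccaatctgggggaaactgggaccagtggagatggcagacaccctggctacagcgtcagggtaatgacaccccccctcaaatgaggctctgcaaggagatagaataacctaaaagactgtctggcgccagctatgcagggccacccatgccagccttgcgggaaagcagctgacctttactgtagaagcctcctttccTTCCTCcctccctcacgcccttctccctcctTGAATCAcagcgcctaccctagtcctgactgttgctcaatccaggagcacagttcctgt
C1qc: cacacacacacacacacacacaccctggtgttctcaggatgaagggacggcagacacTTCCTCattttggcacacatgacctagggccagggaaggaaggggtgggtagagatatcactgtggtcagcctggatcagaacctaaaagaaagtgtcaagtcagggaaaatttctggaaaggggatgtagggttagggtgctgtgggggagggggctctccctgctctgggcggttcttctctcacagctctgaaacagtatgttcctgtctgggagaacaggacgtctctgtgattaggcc
Ctss: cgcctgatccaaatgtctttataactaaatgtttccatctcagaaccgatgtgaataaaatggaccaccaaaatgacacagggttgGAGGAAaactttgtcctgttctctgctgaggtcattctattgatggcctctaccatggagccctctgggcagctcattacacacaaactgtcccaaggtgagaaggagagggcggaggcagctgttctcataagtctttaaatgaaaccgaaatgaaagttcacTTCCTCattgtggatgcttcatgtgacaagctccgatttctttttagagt

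Reg1, a secreted lectin-like protein of the regenerating family, separated NZO from all other strains on its only kept probe. Whether base differences between strains lie under that probe was not tested. The injured NZO arrays read 5.89, 6.0, 6.68 and 6.07, above background on 3 of 4, and the naive arrays 5.54, 5.23, 5.49 and 5.45, on none. The rise in NZO was at least 1.11-fold (response 0.73, adjusted p = 0.000692), a call that is lost without background correction (highest adjusted p under the alternatives 0.144). In the other strains Reg1 rose by 4.40 on average, from 3.71 in AJ to 5.49 in DBA, with group means of 8.87 to 10.61 on injured arrays. The lowest injured array of any other strain read 8.39, so injured NZO arrays did not overlap with any of them. The difference in response was −3.67 (SE 0.18, adjusted p = 3.23e-24). Within runs of columns injured NZO minus the other strains' injured arrays was −3.77 to −3.28 over 4 runs. Its window above holds an AP-1 motif. Reg3b, a related gene chosen after its value was seen, rose by 1.69 in NZO against 2.91 elsewhere, a difference of −1.22 (adjusted p = 0.00133).

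Trem2, a lipid-sensing receptor of macrophages and microglia, read 6.20, 6.56, 5.71 and 6.17 on naive and 7.0, 7.24, 6.95 and 6.59 on injured NZO arrays. The groups did not overlap, but the rise was small: 0.78 (SE 0.21) in NZO against 2.88 elsewhere, where it lay between 2.43 in NOD and 3.72 in WSB. The difference was −2.09 (SE 0.23, adjusted p = 5.87e-10). Naive NZO ganglia were higher than those of the other strains by 0.66, and injured ones stood at −1.43 from theirs.

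**Figure D3:**
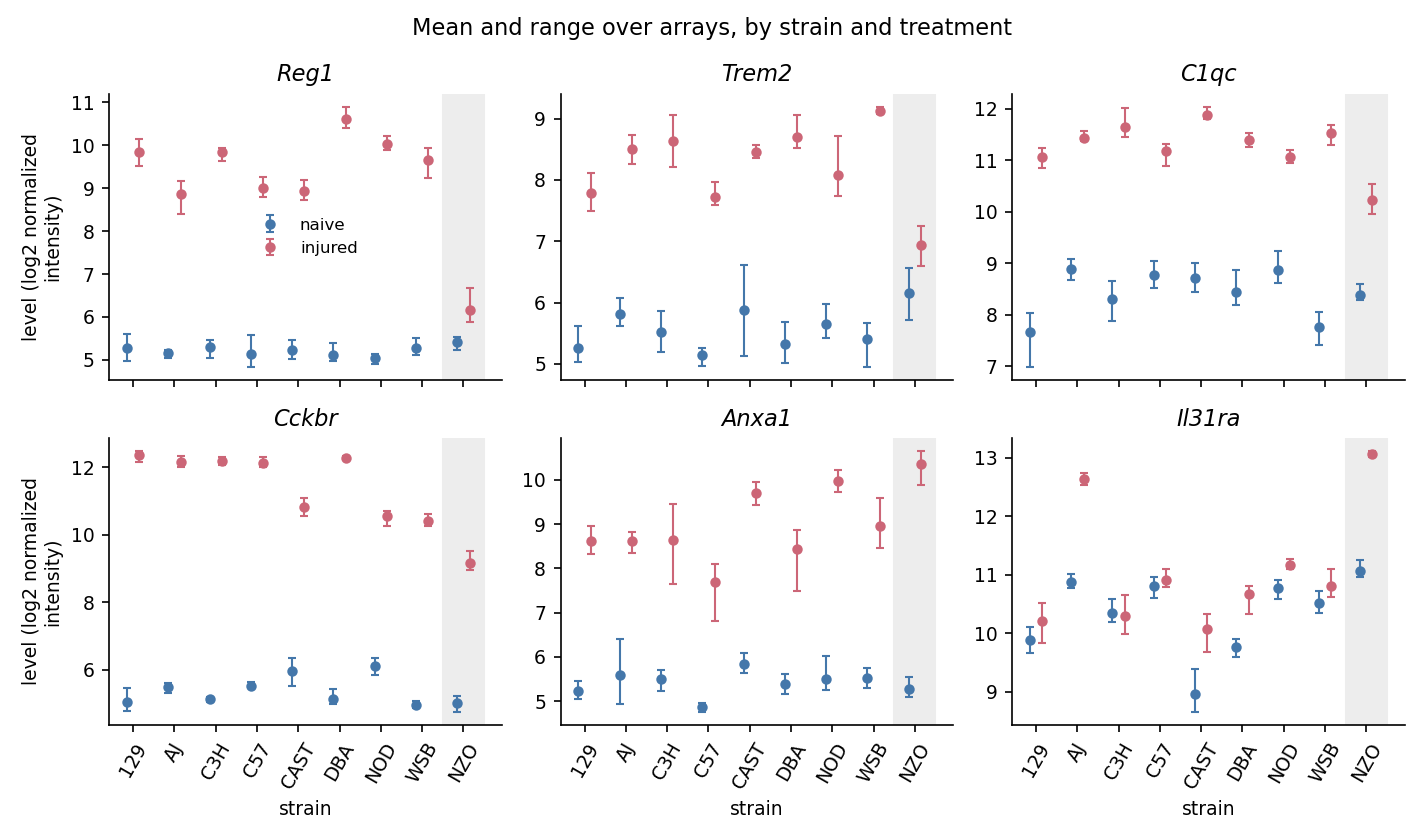
Levels of Reg1, Trem2, C1qc, Cckbr, Anxa1 and Il31ra by strain (horizontal axis) and treatment (vertical axis, log2 normalized intensity; points, means; bars, lowest to highest array). NZO, shaded, has injured Reg1 at 6.16, while the injured means of the other strains lie between 8.87 and 10.61.

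Macrophage markers as a group rose less in NZO. Of 29 listed markers 22 were measured, and 18 of them rose in NZO with a median response of 1.31, beside a median of 2.23 in the other strains together. In the test of the difference 14 of the 22 were lower in NZO and 1 was higher, where all genes gave 1.28% and 1.3%. The median difference was −0.90 against 0.019 over all genes, and 21 of 22 markers lay below 0. The naive levels showed no such shift: 3 markers were higher in naive NZO (Trem2, Ly86 and Mrc1) and 4 lower (Cx3cr1, Fcer1g, Lyz2 and Lyz1), beside 9.45% and 9.44% of all genes, with a median of 0.030. In injured ganglia 20 of 22 were lower and 2 higher, Gpnmb and Ly86 (8.51% and 10.9% of all genes), with a median of −1.0. In whole ganglia fewer macrophages and less of these RNAs per macrophage cannot be told apart.

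The shift was present on every injured NZO array. The mean level of the 22 markers was 7.76, 7.76, 7.49 and 7.68 on the naive and 8.84, 9.03, 8.89 and 8.84 on the injured arrays, and the summed intensity was 11102 to 13253 and 26426 to 30201. The next lowest injured group was 129, with mean levels of 9.30 to 9.52 and summed intensities of 33519 to 38700, above all injured NZO arrays. Naive NZO arrays lay among those of the other strains, between WSB (7.10 to 7.37) and NOD (7.90 to 8.15). Within runs of columns the mean level of injured NZO minus that of the other injured arrays was −0.92 to −0.65 over 4 runs, and the same for naive arrays was −0.26 to 0.053. Only Fcer1g, the shared Fc receptor chain, was not above background on any NZO array. Cd68, Csf1r, Itgam, Ms4a6c, Mpeg1, Ccr2 and Msr1 were not measured.

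**Figure D4:**
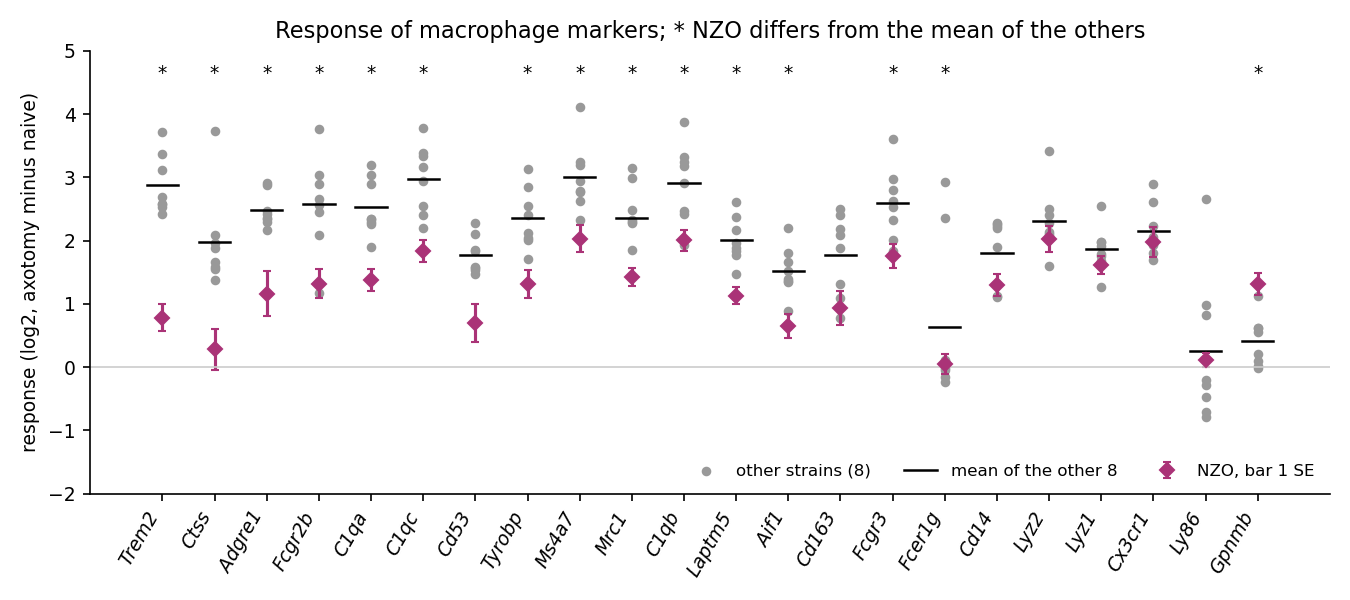
Response (vertical axis, log2) of 22 macrophage markers (horizontal axis) in NZO (diamonds, bar 1 SE), in the other 8 strains (grey points) and as the mean of those 8 (lines); asterisks mark genes past the threshold in the test of the difference. NZO lies below the mean of the others for 21 of 22 markers.

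The complement C1q subunits, which form 1 secreted complex, were all lower in response. C1qc went from 8.60, 8.28, 8.39 and 8.28 to 10.10, 10.30, 10.54 and 9.96 in NZO, a rise of 1.83 against 2.97 elsewhere (difference −1.14, SE 0.18, adjusted p = 2e-05). C1qa differed by −1.16 and C1qb by −0.92. Ctss, cathepsin S of antigen-presenting cells, read 6.0, 7.02, 6.17 and 6.31 on naive and 6.85, 6.81, 6.08 and 6.90 on injured arrays, which overlap. Its response in NZO was 0.28 (adjusted p = 0.586) against 1.98 elsewhere, a difference of −1.70. The Fc receptors Fcgr2b (−1.26) and Fcgr3 (−0.83), the mannose receptor Mrc1 (−0.93), Ms4a7 (−0.97), Laptm5 (−0.88), Aif1 (−0.87) and the Trem2 partner Tyrobp (−1.03) were also lower in response.

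Not every marker followed. Gpnmb, a glycoprotein of lysosome-rich macrophages, rose by 1.31 in NZO against 0.41 elsewhere, a difference of 0.90 (adjusted p = 0.00101). The lysozyme genes Lyz2 (2.02 against 2.32) and Lyz1 (1.61 against 1.86), which are near-identical copies, and the fractalkine receptor Cx3cr1 (1.98 against 2.15) did not pass the test of the difference. Other Lyz2 probes differed by −0.90 and, near background, −0.96, so whether Lyz2 is an exception depends on the probe. Cd53, Cd163, Cd14 and Ly86 did not pass it either, with Cd53 at −1.07 (adjusted p = 0.0508). Adgre1, an adhesion receptor typical of mouse macrophages, passed at −1.32 (adjusted p = 0.0369), but its highest adjusted p under the alternatives was 0.248. Fcer1g passed at −0.57 with the difference of the same sign against only 4 of 8 strains.

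The shortfall was not of 1 size against every strain. The median response of the 22 markers was 1.31 in NZO, 1.69 in NOD, between 2.08 and 2.35 in 129, AJ, C3H, C57, CAST and DBA, and 2.78 in WSB. Against single strains the markers with a lower response in NZO numbered 16 against WSB (2.54% of all genes were lower), 13 against C3H (1.29%), 13 against CAST (3.5%), 12 against DBA (1.51%) and 10 against 129 (1.06%). They numbered 3 against AJ (0.525%), 3 against C57 (0.432%) and 2 against NOD (0.322%). The median difference of the markers was −0.35 against NOD, −0.71 against AJ and −0.73 against C57. It was −0.89 against DBA, −0.96 against C3H, −1.04 against 129, −1.15 against CAST and −1.57 against WSB. The counts thus set AJ and C57 further from DBA and C3H than the medians did. The count of 14 lower markers fell to 8 without naive replicates 1 and 4 and to 1 with a fold of at least 1.5, while the median difference stayed between −0.98 and −0.54 over all alternatives, smallest without background correction and with the authors' deposited log2 matrix.

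**Figure D5:**
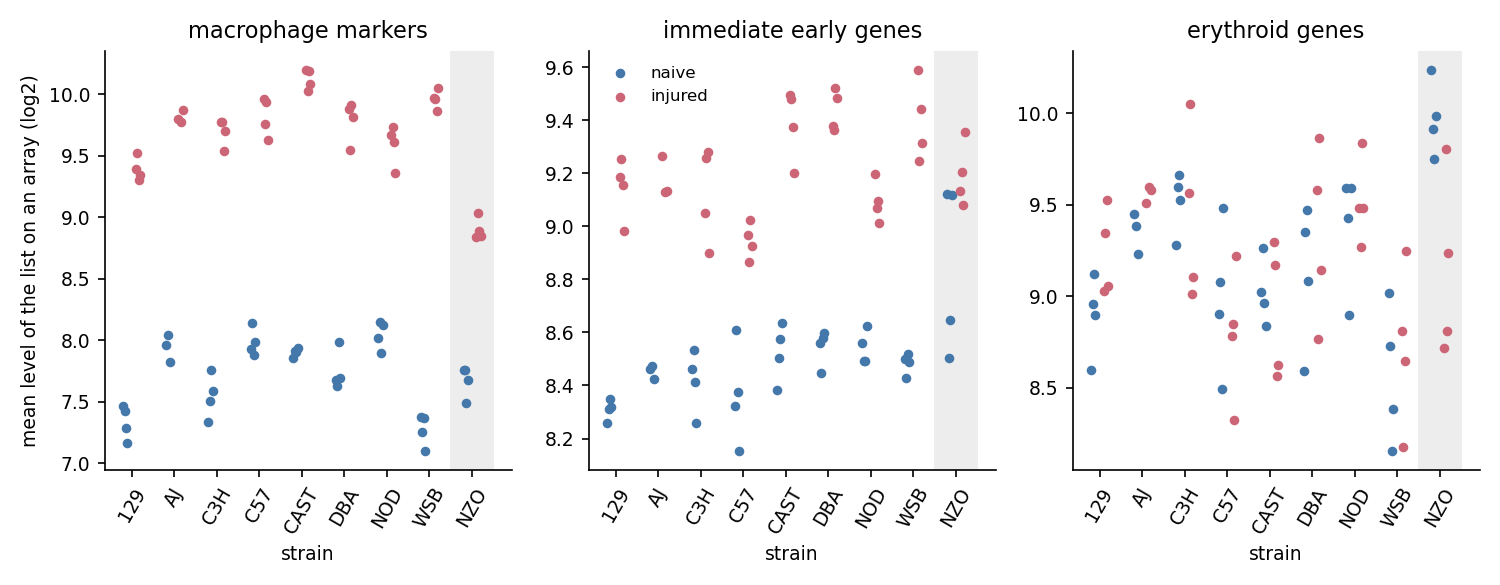
Mean level (vertical axis, log2) of macrophage markers, immediate early genes and erythroid genes on each array (points), by strain (horizontal axis) and treatment. Injured NZO arrays, shaded, read 8.84 to 9.03 for macrophage markers and lie below the injured arrays of every other strain.

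Among signals that attract or activate leukocytes the gap depended on the strain compared. Of 31 cytokine and chemokine genes 16 rose in NZO, and 8 were lower and 1, Cxcl12, higher in the test of the difference, though the other 2 Cxcl12 probes differed by 0.37 and −0.031. The list was called at 54.8% in the response and 29% in the difference, where all genes gave 27.4% and 2.58%. The median response of the list was 0.51 in NZO, 0.39 in 129, 0.53 in NOD and 0.54 in C57, with at most 3 genes lower in NZO against any of these strains. The median was higher in C3H (1.14), DBA (1.15), CAST (0.93) and WSB (0.60), with 10, 11, 12 and 8 genes lower in NZO, and it was 0.69 in AJ. Ccl7, a monocyte-attracting chemokine, rose at least 1.79-fold in NZO (response 1.43 against 2.95, difference −1.52). Ccl5, made by T cells and macrophages, read 0.17 in NZO (adjusted p = 0.669) against 1.67 elsewhere. Csf1, the macrophage growth factor that injured sensory neurons release, went from 7.82, 8.21, 8.30 and 8.05 to 10.49, 10.35, 10.37 and 10.18 in NZO. That rise of 2.25 was smaller than the 3.17 elsewhere, but the naive level was higher in NZO by 1.38 and the injured level by 0.46 (adjusted p = 0.00403). Ccl19 fell by 0.77 in NZO, from a naive level 3.06 above that of the other strains. Cxcl14, Ccl4, Il18 and Cxcl13 differed by −1.01, −0.79, −0.69 and −0.70, and Cxcl13 was not above background on any NZO array. Ccl8, the chemokine with the largest rise in NZO, rose at least 7.53-fold and did not pass the test of the difference (−0.55, adjusted p = 0.280).

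Of 29 interferon-stimulated genes 10 rose in NZO, with a median of 0.37. The list was called at 34.5% in the response and 10.3% in the difference, where all genes gave 27.4% and 2.58%. The median in single strains was highest in CAST (2.28, 21 genes lower in NZO) and C3H (1.43, 13 lower), while DBA (0.62), WSB (0.54) and AJ (0.54) had at most 2 lower. In 129 (0.29), NOD (0.35) and C57 (0.10) it was below that of NZO. In the test of the difference 3 were lower, Ifitm3 (−0.48), Rsad2 (−1.24) and Mx2 (−0.95), with a median of −0.44, and the highest adjusted p under the alternatives was 0.210, 0.152 and 0.414. Of 25 genes of MHC and antigen presentation 9 rose and 1 fell, H2-M3, in NZO, with a median of 0.19 beside 0.23 in C57, 0.26 in NOD and 1.38 in CAST. Only Ctss and B2m, the class I light chain (−0.36), were lower in response (8% of the list, with 40% called in the NZO response). The class II genes Cd74 (1.49 against 1.47), H2-Ab1 (1.71 against 1.37) and H2-Eb1 (1.36 against 1.31) had differences of 0.020, 0.34 and 0.053, not past the threshold, on the probes with the highest mean. The other 3 H2-Ab1 probes differed by −0.12, −0.62 and −0.67 and the other Cd74 probe by −0.18, so the direction of these differences is not settled. Among 20 complement and acute phase genes, C1qa, C1qb and C1qc were the ones lower in response (15% of the list), and C4b rose by 1.46 in NZO and 1.37 elsewhere.

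Among genes outside these lists Pf4 and Cd84 had a lower response. Pf4, platelet factor 4, which macrophages also make, read 8.06, 8.69, 7.99 and 8.49 on naive and 8.03, 8.66, 7.84 and 8.71 on injured NZO arrays. Its response was 0.0055 (adjusted p = 0.995) against 1.81 elsewhere, although CAST also showed only 0.15. Cd84, a leukocyte surface receptor, read 0.17 in NZO against 1.71 (difference −1.53, adjusted p = 1.52e-05). Of 18 neutrophil markers 2 rose in NZO, Il1b and Stfa2 (11.1%, below the 27.4% of all genes called). Their median of 0.54 lay near that of 129 (0.56) and above those of WSB (0.50) and CAST (−0.024). In the difference, Csf3r was lower (−0.91) and Stfa2 higher (0.96), 11.1% of the list beside 2.58% of all genes. Csta2, a protease inhibitor of the stefin family, was not above background on any NZO array and was not past the threshold in 129, AJ or NOD either (−0.15, −0.32 and −0.14), while it rose by 3.67 to 4.30 in the other 5 strains. Whether base differences between strains under a probe move such values was not tested, since probe sequences were not used here.

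Cckbr, Gpr151 and Gal, induced in injured neurons, rose less in NZO. Cckbr, the cholecystokinin B receptor, read 9.51, 9.08, 9.12 and 8.96 on injured NZO arrays, at least 8.91-fold above the naive arrays, none of which was above background. Its response was 4.15 against 6.20 elsewhere, with NOD (4.44, adjusted p = 0.618 for the difference from NZO) and CAST (4.88) nearest. Gpr151, an orphan receptor of injured sensory neurons, went from 8.41, 8.38, 7.88 and 8.35 to 12.41, 12.15, 12.48 and 12.26, a rise of 4.07 against 5.70 elsewhere, and CAST read 3.44 (adjusted p = 0.0818 for the difference from NZO). Gal rose by 3.69 against 4.79, and here the naive level carried the difference. Naive NZO was higher by 1.12, and the injured levels differed by 0.017 (adjusted p = 0.966).

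Other injury genes rose more. Of the 39 injury-induced neuronal genes 8 were higher in response, Anxa1, Wfdc3, Flrt3, Ecel1, Lifr, Jun, Bdnf and Ngfr, and 4 lower, Cckbr, Gpr151, Gal and Klf4. The list was called at 30.8%, beside 2.58% of all genes, with a median difference of −0.059. Anxa1, which dampens inflammation, read 5.15, 5.32, 5.09 and 5.54 on naive and 10.65, 10.45, 9.88 and 10.49 on injured arrays. Its response of 5.09 exceeded the 3.40 of the other strains by 1.69 (SE 0.29, adjusted p = 5.91e-05), with NOD nearest at 4.48. Flrt3, an adhesion protein, rose by 3.82 against 3.08, and Jun by 1.83 against 1.40; both started lower in naive NZO (by −0.78 and −0.49) and reached injured levels within −0.042 and −0.053 of the others. Lifr, the leukemia inhibitory factor receptor, rose by 0.69 against 0.067. Among the fixed injury markers Atf3, Sprr1a, Gap43, Gadd45a, Npy and Inhba did not pass the test of the difference, with differences from −0.92 (Npy, adjusted p = 0.0776) to 0.14 (Atf3). The calls of Ecel1, Klf4, Bdnf and Ngfr were lost under several alternatives.

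Il31ra, the receptor of the itch cytokine interleukin 31, rose more in NZO than in most strains. It read 11.07, 10.96, 10.97 and 11.25 on naive and 13.11, 13.02, 13.04 and 13.10 on injured NZO arrays, without overlap. The rise was 2.01 (SE 0.14) against 0.60 elsewhere, a difference of 1.40 (adjusted p = 1.66e-10). AJ rose by 1.77 (difference from NZO 0.24, adjusted p = 0.858), while C3H and C57 read −0.060 and 0.098. Prc1, a protein of the dividing cell's midzone, rose by 3.65 against 2.57, from 8.49 ± 0.32 to 12.14 ± 0.070 (SD, n = 4). Among 27 cell cycle genes Prc1 was the only one higher in response and Cdkn1a, a cell cycle inhibitor, the only one lower (−0.40). That is 7.41% of the list, beside 2.58% of all genes. In NZO 9 of them rose (33.3%, near the 27.4% of all genes called).

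The remaining genes of the 15 highest differences were mostly weakly expressed. Ccno (cyclin O) rose by 1.88 against 0.22, and Fbxw13, an F-box protein, rose at least 2.08-fold. Tmc5 rose at least 2.96-fold, F2, prothrombin, at least 1.74-fold, and Corin, a protease that activates natriuretic peptide, at least 4.95-fold. Cyp24a1, the vitamin D-degrading enzyme, rose by 2.94 against 1.81, and the lipid flippase Atp10a by 0.81 against −0.19. Htr1a (−0.14 against −1.13) and Nxph2 (0.40 against −0.60) fell elsewhere and were not past the threshold in NZO, where Nxph2 was not above background on any array. Hes5, a target of Notch, differed by 1.10 and the transcription factor Sp1 by 1.19, and both calls were lost under several alternatives.

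In 24 genes the response was past the threshold in opposite directions in NZO and in the other strains together. Htr1d, a serotonin receptor, fell from 11.28, 11.23, 11.37 and 11.24 to 10.20, 10.23, 10.37 and 10.23 in NZO, by 1.02, and rose by 0.21 in the mean of the others. The fall was not peculiar to NZO, since 129 (−0.81) and C57 (−0.57) fell as well. Trpc1, a cation channel, rose by 0.65 in NZO and fell by 0.35 elsewhere, and Paqr9, a progestin receptor family member, rose by 0.46 against −0.15. Both started lower in naive NZO, by −1.21 and −0.46. Pcolce2 rose by 0.43 against −0.11, while its other probe read −0.065 in NZO. Higd1c and Methig1, which share a domain and may share signal, fell by 0.62 and 0.56, and both also fell in NOD (−1.09 and −0.96).

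The differences of 4 immediate early genes moved with naive arrays that stood apart. Of 15 immediate early genes 4 were lower in response in NZO (26.7%, beside 2.58% of all genes called), Egr1 (−1.44), Zfp36 (−1.25), Ccn1 (−1.53) and Fos (−1.11). The mean level of the list was 9.12, 8.50, 8.65 and 9.12 on the naive arrays and 9.13, 9.21, 9.08 and 9.36 on the injured arrays. Without naive replicates 1 and 4 the adjusted p of these 4 genes was 0.583, 0.620, 0.798 and 0.711. Of 7 erythroid genes Alas2, of haem synthesis (−1.91), and Hbb-bt, a beta globin (−1.53), were lower in response (28.6% of the list). The list's mean level was 10.24, 9.91, 9.75 and 9.99 on naive and 8.72, 9.80, 8.81 and 9.23 on injured arrays, and naive NZO stood above the other strains by 1.84 for Alas2 and 3.10 for Hbb-bt. The share of blood in the ganglia was not tested.

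Ifi27l2a, an interferon-stimulated gene, and Mt2, a metallothionein that binds metals, also had higher naive levels in NZO. Ifi27l2a read 12.34, 12.38, 12.51 and 12.36 on naive NZO arrays, 3.44 above the naive mean of the other strains, and 11.78, 12.03, 11.67 and 11.92 on injured arrays. Within runs of columns its injured NZO level also stood above the other strains' injured arrays, by 1.47 to 2.14 over 4 runs. Its response was −0.55 (adjusted p = 0.140) against 1.08 elsewhere, where CAST had the highest (3.79). Mt2 was higher in naive NZO by 1.71 and fell by 0.94, while it rose by 0.63 elsewhere, and the injured levels differed by 0.15 (adjusted p = 0.712).

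Of the lists of non-neuronal support cells, satellite glia (26.7%) and fibroblast genes (26.1%) were called in NZO at about the 27.4% of all genes, and Schwann cell (16.7%), endothelial (13%) and skeletal muscle genes (10%) at lower shares. Of 15 satellite glia markers 1 rose, Dbi (0.27, with the sign lost when probes were averaged), and 3 fell, the gap junction gene Gja1 (−0.25), S100b (−1.08) and Aldoc (−0.58). Of 18 myelinating Schwann cell markers 1 rose, Arhgef19, and 2 fell, Mbp (−0.19) and Pmp22 (−0.32), and Gldn (−0.47) and Pmp2 (−0.79) were lower in response than elsewhere. Of 23 fibroblast and matrix genes 6 rose in NZO, with Timp1 at 3.27 beside 3.21 elsewhere. The list's median of 0.30 lay between those of NOD (0.25) and C57 (0.33), and none was past limma's threshold in the difference (9 were lower at an unadjusted p below 0.05), while 13 were lower in injured NZO ganglia (8.51% of all genes). Of 23 endothelial and pericyte genes Ly6c1 (1.01) and Slc2a1 rose and Esam fell (−0.40). The 20 skeletal muscle genes, whose mean level was high on injured replicate 4, had Actn2 (2.12) and Pvalb (−0.65) past the threshold (the Actn2 response was 2.04 without that array) and none past it in the difference by limma (5 were higher at an unadjusted p below 0.05). These called genes did not show the list's excess on that array. The injured arrays read 7.92, 7.69, 7.65 and 8.09 for Actn2 and 13.33, 13.35, 13.38 and 13.44 for Pvalb.

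Metabolic genes were examined because of the strain. Insulin pathway (25.8%) and fatty acid genes (25%) were called in NZO at about the 27.4% of all genes, cholesterol synthesis genes at 38.9% and glycolytic genes at 40%. Of 31 insulin and insulin-like growth factor genes 7 rose and 1 fell in NZO, the receptor Igf1r (−0.53), with Igfbp3 at 1.94, Irs2, an insulin receptor substrate, at 1.48 and Grb10 at 1.04. Of 18 cholesterol synthesis genes 7 rose, such as Hsd17b7 (1.93), Ebp (0.45) and Sqle (0.35). Of 28 fatty acid genes Dgat2 (0.54), Acsl4 and Fads1 rose and Acsl6 (−0.55), Ppargc1a, Cpt2 and Acadm fell. Of 20 glycolytic genes the glucose transporters Slc2a1 (0.93) and Slc2a3 (0.51), Hk2 (0.83) and Tpi1 rose, and Aldoc, Pfkl, Pfkm and Hk1 fell. None of the genes in these lists, nor of 35 oxidative phosphorylation, 23 ribosomal protein, 21 nociceptor, 14 large-diameter neuron and 23 synaptic vesicle genes, was past the threshold in the difference by limma. At an unadjusted p below 0.05 there were 5 higher and 1 lower nociceptor markers, 4 higher and 1 lower glycolytic enzymes, and at most 1 in each direction in the other lists, where all genes gave 879 higher and 618 lower. Their median differences lay between −0.064 and 0.095, which does not show that the responses were equal.

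Among channel and receptor genes a few differed, 12.5% of ligand-gated receptor subunits and 3.7% of voltage-gated channels, beside 2.58% of all genes. Of 24 ligand-gated receptor subunits P2rx2 (0.72 against −0.14), Gria2 (−0.53 against −1.04) and Gabra3 (0.099 against −0.71) were higher in response, and of 27 voltage-gated channels Kcnd1 (−0.41 against −1.06). The microtubule protein Mapt read −0.012 in NZO against −0.41 on the probe with the highest mean level. Its other probes read −0.34, −0.28 and −0.20 in NZO, with smaller differences of 0.063, 0.22 and 0.19. Among stress genes the chaperone Pdia4 (0.51 against 0.031) and Xbp1 (0.60 against 0.29) rose more. Among peptides Grp and Vgf were higher in response, by 0.98 and 0.59, and follistatin was the only activin pathway gene to differ, by 0.91 (adjusted p = 0.0123).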

How the data were processed

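Total RNA of pooled dorsal root ganglia was measured on Illumina bead arrays. The deposited, non-normalized table holds, per the file headers, an average signal intensity and a detection p-value for each of 25697 probes on 72 arrays, and the intensities run from 164 to 53947. The authors also deposited a log2 matrix of these arrays, used as an alternative, whose values lie within 0.027 of the log2 of the quantile-normalized intensities. The sources used here do not give the scanner's own background step. Of the 72 columns 2 matched no labelled sample and were not used, which left 70 arrays. Median intensity was 273 to 370 on the NZO arrays, and 13147 to 14197 probes were above background there (detection p-value below 0.05). An array carries no read depth, so the number of arrays limits the precision.

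Intensities were background-corrected from their detection p-values (limma 3.58.1 in R 4.3.3, offset 16), normalized between arrays by quantiles and log2-transformed. Correction widens the changes of dim genes. Probes above background on at least 3 arrays were kept (17616, of which 16568 had a gene symbol; symbols are those of the platform annotation, with 23978 probes carrying 1 symbol and 1719 none), and the probe with the highest mean stood for its gene, giving 11815 genes, 3261 of them with several probes. A linear model with a mean for each of 18 groups was fitted over all 70 arrays, and limma's moderated test with a trend was adjusted by Benjamini-Hochberg over all genes (threshold 0.05). The response is injured minus naive NZO, and the difference is that response minus the mean response of the other 8 strains. Folds against a group with no array above background are bounds ("at least"), set against the higher of each array's lowest signal among probes above background and the gene's own signal. The replicates are distinct biological samples per the labels. The p-values set mean differences against a spread between pools that is shared over all 18 groups, not that of the NZO pools alone.

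The members and the 38 gene lists were chosen with earlier results of these data known. Genes were named by rule: the 12 highest and 12 lowest responses that were called with no overlap of arrays, the 15 highest and 15 lowest differences with the same sign against each strain, up to 3 genes of each list in each comparison, 8 injury markers and up to 6 genes called in opposite directions. Other genes, such as the members of small counts, were chosen after their values were seen. The fits were tested on simulated data. Alternatives changed the background correction, normalization, filter, probe choice, weights, blocks, threshold, arrays and strains.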

Additional observations from a re-analysis of the deposited data

Results flagged for a closer look

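Of 422 sets of 4 NZO arrays examined, the naive and the injured set for each gene or list described, 19 held an array whose distance to its nearest neighbour was a larger share of the whole range of the set than Dixon's critical value for 4 values. Chance gives this in about 1 of 20 sets. Single arrays were high for Atf3 7.87 on naive replicate 4, Cd163 8.29 on naive replicate 2, Cx3cr1 8.59 on injured replicate 1, Fstl1 13.70 on injured replicate 4, Gldn 11.00 on naive replicate 1, Klf4 8.51 on injured replicate 4 and Nxph2 5.85 on injured replicate 1. Single arrays were low for Adgre1 6.46 on naive replicate 3, Ctss 6.08 on injured replicate 3, Gal 14.81 on injured replicate 3, Gldn 10.88 on injured replicate 1, Gpr151 7.88 on naive replicate 3, Ifitm3 12.44 on naive replicate 2, Laptm5 11.10 on injured replicate 1, Nmb 10.52 on injured replicate 1 and Vamp1 10.67 on injured replicate 4. The mean level of the 20 skeletal muscle genes was 9.56 on injured replicate 4, where the other 3 arrays lay between 6.48 and 6.93, and 7.41 on naive replicate 1, where they lay between 6.31 and 6.48. The mean level of the injury-induced neuronal genes was 11.22 on injured replicate 1 and 11.03 to 11.06 on the other 3. These arrays were kept in all values of the text, and their part in the results was not tested beyond leaving each of them out.

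A response that differed between NZO and the mean of the other 8 strains was found by the test of the difference itself for 91 of the genes described, given here as NZO minus the others on the log2 scale. Lower among macrophage markers were Trem2 (−2.09), Ctss (−1.70), Adgre1 (−1.32), Fcgr2b (−1.26), C1qa (−1.16), C1qc (−1.14), Tyrobp (−1.03), Ms4a7 (−0.97), Mrc1 (−0.93), C1qb (−0.92), Laptm5 (−0.88), Aif1 (−0.87), Fcgr3 (−0.83) and Fcer1g (−0.57), and higher was Gpnmb (0.90). Lower among cytokine, interferon-stimulated and other immune genes were Pf4 (−1.81), Ifi27l2a (−1.64), Cd84 (−1.53), Ccl7 (−1.52), Ccl5 (−1.49), Rsad2 (−1.24), Ccl19 (−1.05), Cxcl14 (−1.01), Mx2 (−0.95), Csf1 (−0.92), Csf3r (−0.91), Ccl4 (−0.79), Cxcl13 (−0.70), Il18 (−0.69), Ifitm3 (−0.48) and B2m (−0.36), and higher were Stfa2 (0.96) and Cxcl12 (0.57). Lower among immediate early and erythroid genes were Egr1 (−1.44), Fos (−1.11), Zfp36 (−1.25), Ccn1 (−1.53), Alas2 (−1.91) and Hbb-bt (−1.53). Among injury-induced neuronal genes, peptides and their regulators, Cckbr (−2.05), Gpr151 (−1.63), Gal (−1.10), Klf4 (−0.90) and Cdkn1a (−0.40) were lower and Anxa1 (1.69), Prc1 (1.09), Grp (0.98), Fst (0.91), Wfdc3 (0.90), Crem (0.87), Flrt3 (0.74), Ecel1 (0.66), Lifr (0.62), Vgf (0.59), Jun (0.43), Bdnf (0.43) and Ngfr (0.30) were higher. Higher among channels, receptors, stress and cytoskeletal genes were Il31ra (1.40), Trpc1 (1.00), Htr1a (1.00), P2rx2 (0.87), Gabra3 (0.81), Kcnd1 (0.65), Paqr9 (0.61), Gria2 (0.51), Pdia4 (0.48), Mapt (0.40) and Xbp1 (0.31), and lower was Htr1d (−1.23). Lower among glial and endothelial markers were Pmp2 (−0.79), Gldn (−0.47) and Esam (−0.39). Of the remaining genes Reg1 (−3.67), Csta2 (−2.71), Higd1c (−1.87), Mt2 (−1.57), Methig1 (−1.40), Reg3b (−1.22), Tpd52l1 (−1.06, and −0.45 on its other probe) and Ibsp (−0.82) were lower and Ccno (1.66), Fbxw13 (1.64), F2 (1.36), Tmc5 (1.36), Sp1 (1.19), Cyp24a1 (1.13), Hes5 (1.10), Atp10a (1.00), Nxph2 (1.00), Corin (1.00) and Pcolce2 (0.54) were higher.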

How the results depend on the processing

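Both counts of called genes were recomputed under each alternative. The response count of 3240 was 466 (347 higher, 119 lower) when a fold of at least 1.5 was tested and 2768 to 3048 with each NZO array left out in turn. It was 2661 (median scaling) to 3763 (array weights) under the remaining alternatives and 2551 without naive replicates 1 and 4 together, chosen after the data were seen. The difference count of 305 was 12 (3 higher, 9 lower) with a fold of at least 1.5 and 517 (280 higher, 237 lower) with array weights. It was 190 to 277 with each NZO array left out, lowest without injured replicate 1, and 180 (98 higher, 82 lower) without naive replicates 1 and 4. The causes were not tested. Leaving out strains gave 277 to 349. Replicate numbers recur in each group but did not pair the arrays: same-numbered naive and injured NZO arrays had residual correlations of −0.060, 0.14, 0.14 and −0.10. With the replicate block the counts were 3255 and 292. The run of 8 columns as a fixed block gave 3261 (1552 higher, 1709 lower) and 332 (135 higher, 197 lower). Median scaling moved the median difference of all genes from 0.019 to 0.094 and gave 263 differences (152 higher, 111 lower).

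The sign changed for 3 responses among the genes described. Egr1 was 0.015 in place of −1.01 without naive replicates 1 and 4. With the mean of all kept probes Dbi was −0.0021 in place of 0.27, and Stat3 was 0.26 in place of −0.010. Without background correction the median response of the macrophage markers was 0.59 in place of 1.31, with 18 of 22 past the threshold, and their median difference −0.54 in place of −0.90, with 15 lower and 1 higher. Of the 91 differences described, 54 stayed past the threshold without naive replicates 1 and 4, 68 to 81 with each NZO array left out, 79 with median scaling and 10 with a fold of at least 1.5. Dim genes near background give only bounds, and 1 pooled sample per array hides the spread between mice. A fit of the NZO arrays alone gave 3418 responses and was not run for the difference, which needs the other strains.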
